A study of Mus musculus with 4 samples.

Results

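Transcript levels were examined for 41 mouse genes that code for histone lysine demethylases (KDM) and for related oxygenases, the enzyme class at which the inhibitor 5-carboxy-8-hydroxyquinoline (CHQ) is aimed. The genes were chosen by name. Every probe whose gene name in the scanner files was one of the 41 symbols, or an older symbol of the same gene, was taken, which gave 66 of the 55122 probes and 41 of the 36039 gene names measured. They comprise 17 demethylases with a JmjC domain, 4 other JmjC proteins, 2 demethylases of the LSD1 type, 4 hydroxylases of the hypoxia-inducible factor (HIF), 6 collagen hydroxylases, 3 TET enzymes, and a group of 5 made up of Fto and 4 ALKBH enzymes. All 41 were found on the array, 24 of them with 1 probe and 17 with 2 or more.

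The cells were E14Tg2A mouse embryonic stem cells of strain 129/Ola, an established line. ES cells were untreated and taken at day 0 from medium with serum and LIF, a cytokine that sustains pluripotency. Epiblast-like aggregates (ELA) were formed from them over 2 days in a serum-free minimal medium, and serve as a model of the primed state of the early embryo. Aggregates of the same age were exposed while they formed to 50 nM 5-azacytidine (AZA), labelled as an inhibitor of DNA methyltransferases, or to 100 µM CHQ, labelled as an inhibitor of lysine demethylases. Each of the 4 groups is 1 single-colour array on which RNA pooled from 3 experiments was hybridised, so there is no replicate array, no test between groups and no p-value. In such bulk RNA, fewer cells of a type and less RNA per cell cannot be told apart.

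All but the LSD1 type belong by sequence to a family of oxygenases that need iron(II), oxygen and 2-oxoglutarate. They couple the oxidation of 2-oxoglutarate to the hydroxylation of their substrate, which is a methyl group on a histone lysine for the JmjC demethylases, 5-methylcytosine in DNA for the TET enzymes, a methylated base of RNA or DNA for Fto and the ALKBH enzymes, and a proline, lysine or asparagine of a protein for the hydroxylases of HIF and collagen. The LSD1 type uses a flavin cofactor instead. The hydroxylated prolines of HIF mark it for destruction when oxygen is present. Several of the oxygenases themselves are known as genes that HIF switches on. CHQ binds the iron of these enzymes in place of 2-oxoglutarate and acts on the protein, so a change in transcript level is a separate matter from a change in activity.

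Values are log2 intensities after background correction and quantile normalisation over the 4 arrays, and a difference of 1 is a 2-fold change. For a gene with several probes the brightest is given. Of the 17 genes with several probes, at least 1 other probe had the opposite sign for 3 genes in ELA minus ES, 6 in AZA minus ELA, 6 in CHQ minus ELA and 8 in CHQ minus AZA. Some of them were counted only through probes not well above background on an array compared, whose sign decides little. These were Phf8 and P4ha1 in ELA minus ES, and Kdm3b, P4ha3 and Tet3 in AZA minus ELA. They were Kdm3b, Kdm4a and P4ha3 in CHQ minus ELA, and Tet3 in CHQ minus AZA. A gene was called when its absolute difference was at least 1, the mean of both arrays was at least 7.5 and at least 1 of them had the probe well above background. "Rose" and "fell" are used for called genes. Repeated spots of a probe differed by a pooled SD of 0.124 to 0.174 within an array, over 432 probes. Different probes of a gene differed more. The SD of a difference among probes of 1 gene was 0.29 in ELA minus ES, 0.549 in AZA minus ELA, 0.543 in CHQ minus ELA and 0.304 in CHQ minus AZA. A call just past 1 in the comparisons of a treated array with ELA thus lies within 2 SD of this spread. The ES and ELA arrays lay on one slide and the AZA and CHQ arrays on another. A difference of a treated array from the ELA control therefore also crosses slides, and slide and treatment cannot be told apart in it, whereas ELA minus ES and CHQ minus AZA lie within a slide. The slides differed in the median local background (59 and 77 intensity units against 14 and 13) and in how many gene spots stood well above background (60.6% and 55.1% against 69.1% and 69.2%). Of the 41 brightest probes, 40 were well above background on all 4 arrays. The exception was Kdm4d, which was not on the ES and ELA arrays.

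The 41 genes were called as follows. From ES to ELA, 1 of the 40 genes that could be called rose and 2 fell, where 4.51% of all 18973 genes that could be called rose and 5.5% fell. With AZA, 8 of 40 rose from the ELA level and 3 fell, against 14.2% and 11.4% of 19167 genes. With CHQ, 12 of 40 rose and 3 fell, against 14.8% and 11.9% of 19182 genes. Between CHQ and AZA, 1 of 39 was higher with CHQ and 0 were lower, against 5.6% and 4.8% of 19174 genes. The medians over all 41 genes were 0.14, 0.21, 0.39 and 0.17, where the genes that could be called had medians of -0.01, -0.07, -0.08 and -0.02. Differences beyond 2 SD of the spread among probes were found for 10 members from ES to ELA, 7 with AZA and 11 with CHQ, where 23.1%, 22.3% and 23.4% of all genes that could be called exceeded it. Scaling to 7 E1A spike-in probes turned the median over the members for ELA minus ES to -0.50 and left the others above 0, with 0.036 for CHQ minus ELA. Under it Kdm3a, Tet1 and Alkbh2 were no longer past the threshold with AZA, nor were Kdm4b, Kdm4c, Kdm6b, Phf8 and Alkbh3 with CHQ. With scaling to the 75th percentile, Kdm3a and Tet1 missed it with AZA and Kdm4c and Phf8 with CHQ. The sign of the difference turned under spike-in scaling for 17 of the 41 genes from ES to ELA, for 2 with AZA, for 3 with CHQ and for 6 between CHQ and AZA, in each case genes that were not called. The AZA and CHQ comparisons share the ELA control array, so a deviation of that array enters both, and their values are given side by side.

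**Figure D1:**
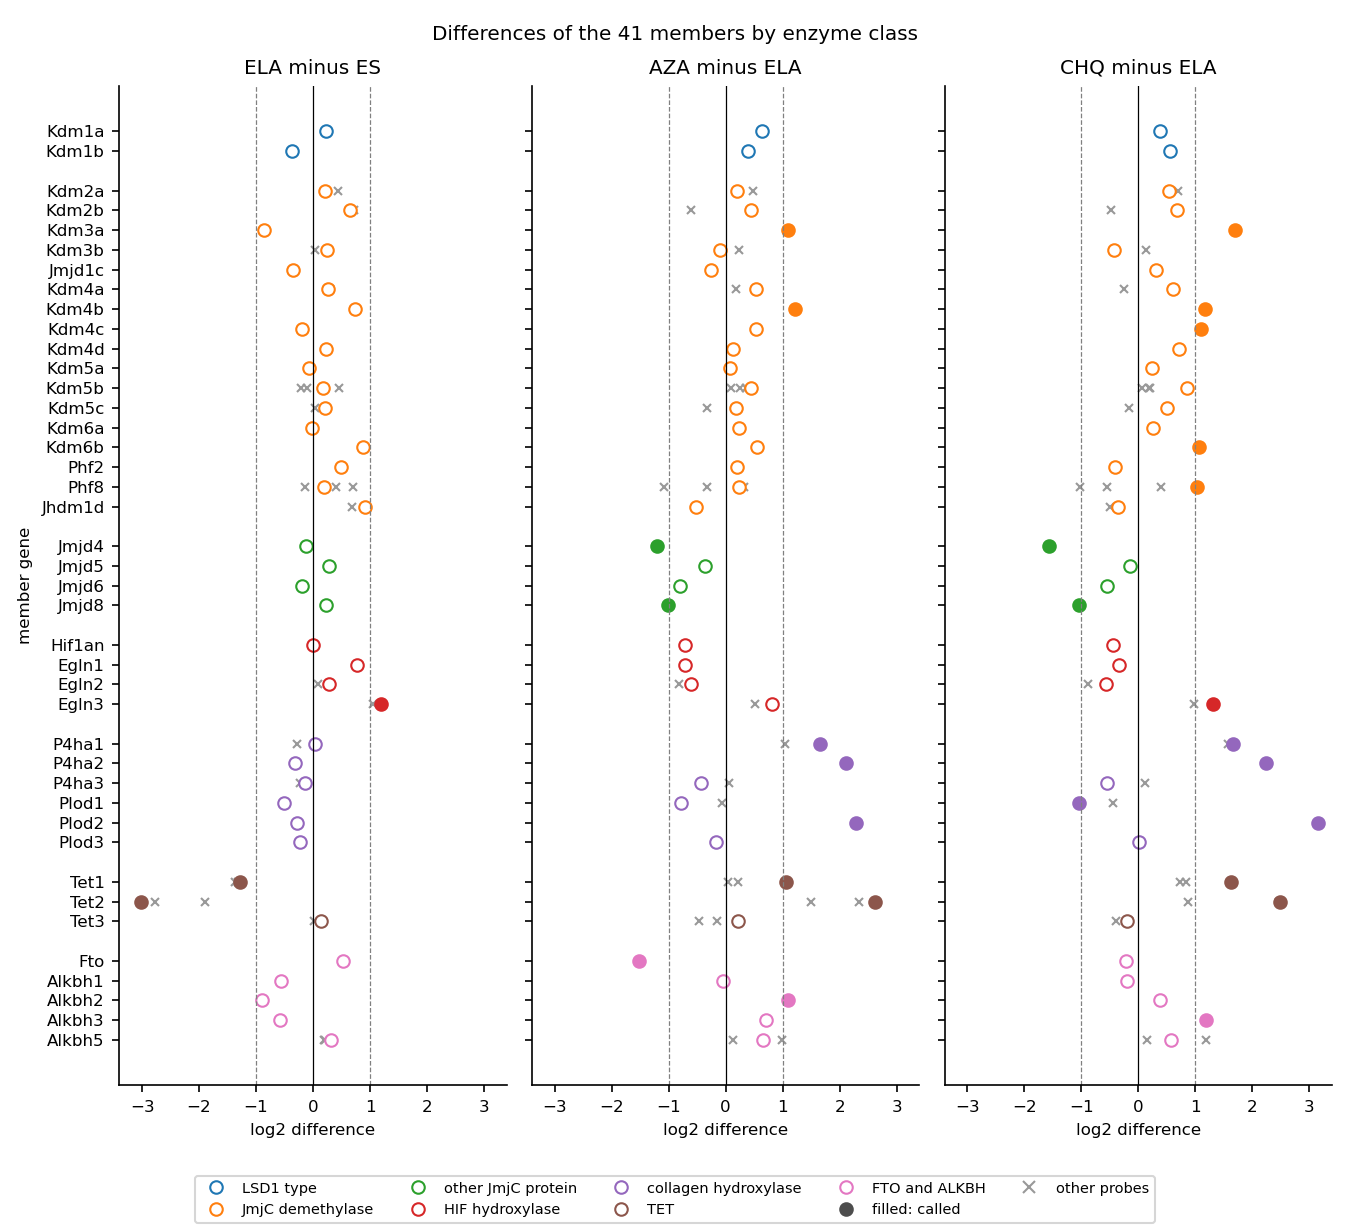
Log2 differences (x axis) of the 41 genes (y axis, grouped and coloured by enzyme class) for ELA minus ES, AZA minus ELA and CHQ minus ELA, with 1 array per group. Circles are the brightest probe, filled where the gene was called, crosses are other probes of the gene, and dashed lines stand at -1 and 1; the largest rises are those of Tet2 with AZA (2.62) and Plod2 with CHQ (3.15).

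To show what the promoters of the genes that rose with both treatments look like, the 250 bases before the transcription start were read from RefSeq (build GRCm38.p6). Entries existed for 35 of the 41 genes, 43 promoters in all. They were searched on both strands for ACGTG and GCGTG, the core letters of the element that HIF binds; CACGTG reads ACGTG on either strand and so counts on both. At least 1 match was present in 25 of the 43 promoters (58.1%) and in 38.6% of all 32851 promoters. The core holds a CpG, and the promoters of these genes are rich in CpG, with a median of 18 against 6 over all promoters. Among the 7120 promoters with at least 18 CpG, 69.6% held a match. The 58.1% also covers promoters of these genes with fewer CpG, so the shares are not matched and give no ranking. Of the 12 genes that rose with CHQ, 9 had an entry and 7 of these held a match, as did 12 of 22 genes that were not called and 2 of 3 that fell. With AZA, a match was held by 4 of 6 genes that rose, 16 of 25 that were not called and 1 of 3 that fell. The promoters of 6 genes are shown, those with an entry that rose with both treatments and that of Egln3, added after its rise from ES to ELA and with CHQ was seen, with matches in capitals and the strand of the gene. P4ha1 (chr10:59323046-59323295, plus strand) and P4ha2 (chr11:54100674-54100923, plus strand) have 3 matches each, and Kdm3a (chr6:71632918-71633167, minus strand), Egln3 (chr12:54203875-54204124, minus strand) and Tet2 (chr3:133544391-133544640, minus strand) have 1 each. Tet1 (chr10:62887325-62887574, minus strand) has 0.
P4ha1: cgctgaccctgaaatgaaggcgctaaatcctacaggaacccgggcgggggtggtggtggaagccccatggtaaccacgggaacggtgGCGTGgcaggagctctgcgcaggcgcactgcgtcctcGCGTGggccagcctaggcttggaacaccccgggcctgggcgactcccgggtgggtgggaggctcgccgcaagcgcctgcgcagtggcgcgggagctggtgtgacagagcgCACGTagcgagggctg
P4ha2: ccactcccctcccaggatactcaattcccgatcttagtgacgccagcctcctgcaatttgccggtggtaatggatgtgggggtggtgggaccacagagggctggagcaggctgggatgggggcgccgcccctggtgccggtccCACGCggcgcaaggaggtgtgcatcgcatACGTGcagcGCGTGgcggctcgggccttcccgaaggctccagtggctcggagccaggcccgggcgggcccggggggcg
Kdm3a: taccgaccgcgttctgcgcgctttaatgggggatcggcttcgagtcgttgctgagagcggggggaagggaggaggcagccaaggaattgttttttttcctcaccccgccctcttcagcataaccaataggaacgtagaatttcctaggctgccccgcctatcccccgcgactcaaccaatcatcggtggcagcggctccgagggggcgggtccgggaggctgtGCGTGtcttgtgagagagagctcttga
Egln3: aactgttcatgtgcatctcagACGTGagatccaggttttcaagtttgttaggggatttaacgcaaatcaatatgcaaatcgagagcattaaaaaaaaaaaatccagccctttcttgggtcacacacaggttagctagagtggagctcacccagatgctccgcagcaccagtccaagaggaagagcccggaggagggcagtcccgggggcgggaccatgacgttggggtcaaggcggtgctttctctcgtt
Tet2: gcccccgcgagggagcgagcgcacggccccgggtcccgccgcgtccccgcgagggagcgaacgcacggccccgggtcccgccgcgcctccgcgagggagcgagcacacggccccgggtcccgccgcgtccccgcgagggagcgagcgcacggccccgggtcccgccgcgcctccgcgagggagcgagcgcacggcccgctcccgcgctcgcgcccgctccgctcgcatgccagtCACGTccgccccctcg
Tet1: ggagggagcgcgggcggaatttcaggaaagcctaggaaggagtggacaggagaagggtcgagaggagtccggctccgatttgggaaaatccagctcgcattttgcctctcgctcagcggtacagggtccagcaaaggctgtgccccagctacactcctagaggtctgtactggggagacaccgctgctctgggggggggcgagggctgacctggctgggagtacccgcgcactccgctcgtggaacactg
The Kdm3a sequence belongs to the first of 3 listed starts, and the other two hold no match. A run of these letters is a description of the sequence and does not show that a factor binds there.

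The TET enzymes, which begin the removal of DNA methylation by oxidising 5-methylcytosine, held the largest fall among the 41 genes from ES to ELA. Tet2 was at 12.07 (ES), 9.06 (ELA), 11.68 (AZA) and 11.55 (CHQ). Only the ELA array was low. Tet2 thus fell 8.07-fold from ES to ELA (-3.01), and rose from there 6.15-fold with AZA (2.62) and 5.63-fold with CHQ (2.49). A second probe gave -2.77, 2.35 and 2.46, and CHQ minus AZA was -0.13 and 0.11 at these probes, within the spread among probes. The third probe, the dimmest, was not well above background in ELA, and its differences were at least 1.59 in size for ELA minus ES, 1.19 for AZA and 0.56 for CHQ. On the AZA and CHQ arrays that probe was well above background, and its CHQ minus AZA of -0.62 exceeded the spread among probes (0.304).

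Tet1, the TET enzyme that is abundant in ES cells, was at 14.55 (ES), 13.27 (ELA), 14.32 (AZA) and 14.90 (CHQ). ELA was again the lowest array. The fall of 1.27 from ES to ELA held at the other two probes (-1.32 and -1.37). The rise with AZA (1.05) did not, since these probes had 0.04 and 0.22. With CHQ, Tet1 rose by 1.62, and the other probes had 0.84 and 0.73. All 3 probes were higher with CHQ than with AZA on the same slide, by 0.57, 0.81 and 0.51. Tet3 differed by 0.14, 0.21 and -0.20 in the 3 comparisons and was not called in any. Its other probes had -0.46 and -0.16 with AZA, but neither was well above background in ELA, so they do not settle its sign there. Naive pluripotency markers were read beside these values. All 5 markers measured, among them Nr0b1, Zfp42 and Klf4, fell from ES to ELA, with a median of -3.03, and rose with AZA (3.91), and 4 of 5 rose with CHQ (3.06), the exception being Nanog (0.01). Between CHQ and AZA all 5 were below 0, with a median of -1.12 and 3 called. Of the TET genes, Tet1 was above 0 in that comparison and Tet2 (-0.13) and Tet3 (-0.41) below. The general pluripotency genes Pou5f1 and Sox2, well above background on all 4 arrays, were not called in any comparison. Their part in the TET values was not tested.

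**Figure D2:**
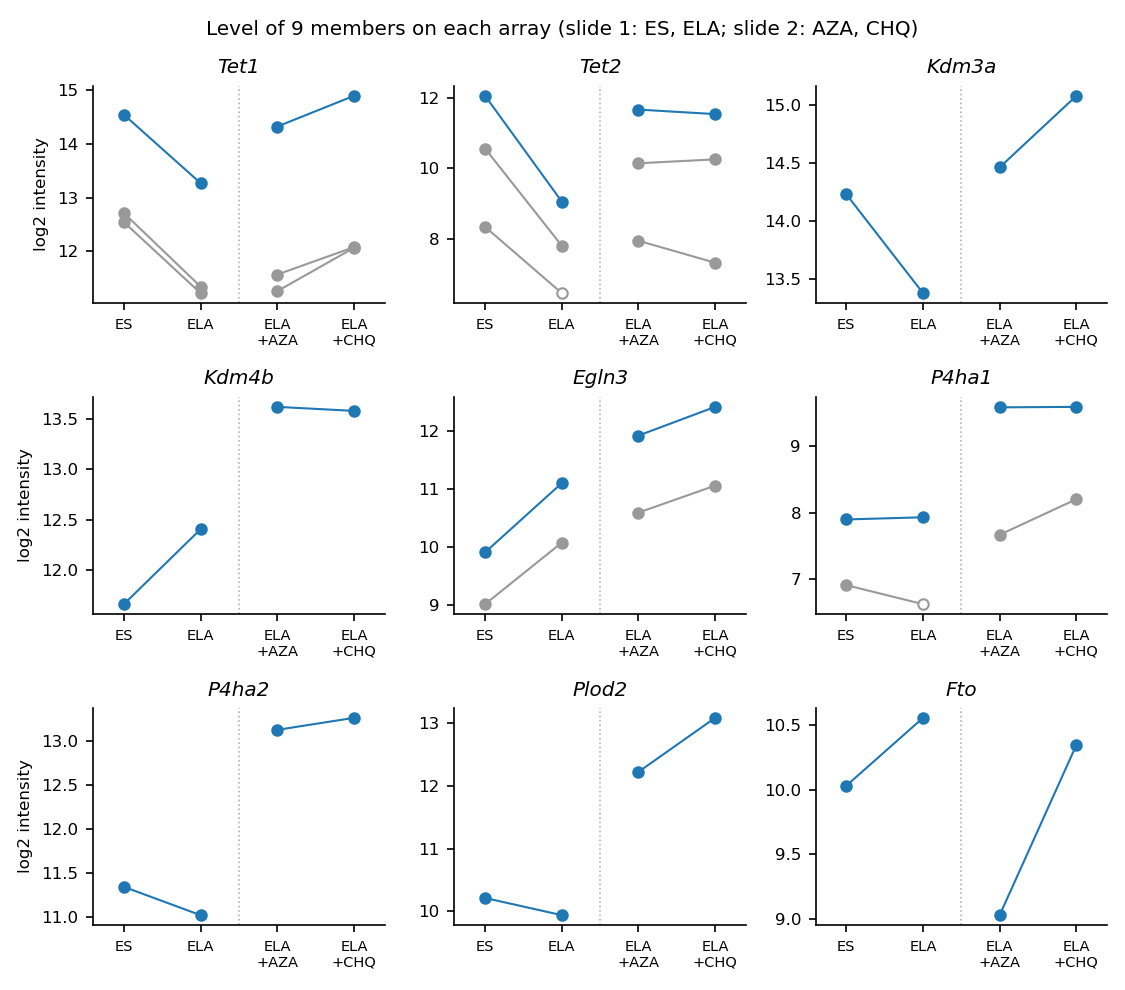
Log2 intensity (y axis) of 9 genes on the 4 arrays (x axis), with the brightest probe in blue and other probes in grey, open circles for probes not well above background, and lines joining only arrays of the same slide, which a dotted line separates. Tet2 is low on the ELA array alone (9.06), Plod2 and P4ha2 are high on both treated arrays, and Fto is low on the AZA array (9.03).

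Among the JmjC demethylases, 0 of 16 genes that could be called were called from ES to ELA, 2 rose with AZA and 5 with CHQ, and 0 fell. As shares, 12.5% and 31.2% rose with AZA and CHQ, beside 14.2% and 14.8% of all genes. Of all genes, 11.4% and 11.9% fell with the treatments, and from ES to ELA 4.51% rose and 5.5% fell. The class medians were 0.21, 0.23 and 0.60. Under spike-in scaling they were -0.39, 0.11 and 0.091, and 1 of the 16 genes stayed past the threshold with AZA and 1 with CHQ. From ES to ELA that scaling put 2 past it, Kdm3a (-1.61) and Jmjd1c (-1.12), both lower in ELA. Kdm3a, which removes methyl groups from lysine 9 of histone H3, was at 14.23 (ES), 13.38 (ELA), 14.46 (AZA) and 15.08 (CHQ). ELA was lowest and CHQ highest. Kdm3a rose 2.12-fold with AZA (1.09) and 3.26-fold with CHQ (1.70), and its CHQ minus AZA difference was 0.62, or 0.31 with spike-in scaling. From ES to ELA it differed by -0.85. The AZA value is near the threshold and was 0.88 under spike-in scaling.

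The KDM4 enzymes act on lysines 9 and 36 of histone H3. Kdm4b was at 11.66 (ES), 12.40 (ELA), 13.62 (AZA) and 13.58 (CHQ), so that it was lowest in ES and alike on both treated arrays (CHQ minus AZA, -0.04). It rose by 1.22 with AZA and by 1.18 with CHQ. Kdm4c had 12.96, 12.76, 13.29 and 13.86 in the same order of arrays, and rose with CHQ (1.10) but was not called with AZA (0.53). Kdm4a was at 11.77 (ES), 12.03 (ELA), 12.57 (AZA) and 12.64 (CHQ), and its differences from ELA, 0.53 and 0.60, were not called. Its second probe, not well above background in ELA, was higher by at least 0.19 with AZA. The value of that probe with CHQ (-0.24) gives no direction. Kdm4d reached 7.12 with CHQ, at least 0.37 above ELA, where it was not well above background.

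Kdm6b, which removes the Polycomb mark from lysine 27 of histone H3, was higher on each array than on the one before, 10.22 (ES), 11.09 (ELA), 11.65 (AZA) and 12.16 (CHQ). Only the CHQ minus ELA difference (1.07) was called. Kdm6a, an X-linked enzyme of the same mark, stayed between 10.10 and 10.35. Phf8, an X-linked enzyme of lysine 9, was at 11.80 (ES), 11.99 (ELA), 12.23 (AZA) and 13.02 (CHQ) at its brightest probe and rose with CHQ (1.03). The 3 dimmer Phf8 probes had -1.02, -0.56 and at least 0.40 in the same comparison, the last being not well above background in ELA. The mean over the 4 probes gave -0.037, so the direction for Phf8 was not settled.

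Kdm2b, which brings a Polycomb complex to CpG islands, also has probes that disagree. The brightest probe was at 14.43 (ES), 15.08 (ELA), 15.52 (AZA) and 15.77 (CHQ). The second had 10.09, 10.81, 10.20 and 10.33. They had similar differences from ES to ELA, 0.65 and 0.72. With spike-in scaling the brightest probe had -0.029 there, and 0.035 with CHQ. With AZA they had 0.44 and -0.61, and with CHQ 0.69 and -0.48. Within the second slide both were slightly higher with CHQ, by 0.24 and 0.14, though the brightest had -0.073 with spike-in scaling.

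The remaining JmjC demethylases were not called in any comparison. Kdm5b, which acts on lysine 4 of histone H3, had differences of 0.17, 0.45 and 0.85 from its brightest probe, while the other 3 had 0.07 to 0.21 with CHQ. With spike-in scaling the brightest probe had -0.56, -0.0087 and 0.029. Kdm5a and Kdm5c of the same family differed from ELA by 0.07 and 0.17 with AZA and by 0.24 and 0.50 with CHQ, while a second Kdm5c probe had -0.33 and -0.16. Kdm2a, which acts on lysine 36, had 0.20 with AZA and 0.55 with CHQ, and its second probe 0.47 and 0.70. Jmjd1c and Kdm3b are relatives of Kdm3a, and Phf2 and Jhdm1d of Phf8. Jmjd1c had -0.25 and 0.32, the latter -0.15 with spike-in scaling, Kdm3b -0.10 and -0.42, and Phf2 0.19 and -0.41. A second Kdm3b probe had 0.24 and 0.13, but it was not well above background on any array, so its sign decides nothing. Jhdm1d (Kdm7a) was at 7.22 in ES and 8.14 in ELA, a difference of 0.92 just under the threshold, with 0.69 from a second probe. The brightest probe was past 1 in size with a background correction without offset (1.23), scaling to the 75th percentile (1.17) and the deposited values (1.31). Under each of these the number of members called higher from ES to ELA stayed at 1. With the treatments Jhdm1d had -0.52 and -0.35.

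The LSD1 type, which shares the histone substrate but not the cofactor, was not called in any comparison. Kdm1a (LSD1) was at 14.59 (ES), 14.82 (ELA), 15.45 (AZA) and 15.21 (CHQ). Kdm1b, its relative expressed in the female germline, had 11.78, 11.41, 11.80 and 11.97. Both were above ELA on each treated array, by 0.39 to 0.63, against a probe spread of 0.549 and 0.543. For Kdm1a with CHQ the direction turned to below 0 under scaling to the 75th percentile and to the spike-ins, with a lowest value of -0.21. Kdm1b was just past the threshold from ES to ELA under spike-in scaling (-1.006). Of 8 partners of LSD1 in its corepressor complexes, 0 were called from ES to ELA or with AZA, and 1 rose with CHQ, Phf21a, the complex's reader of unmethylated lysine 4 of histone H3 (1.32, and 1.48 above AZA).

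The 4 JmjC proteins that are not established demethylases all had values below 0 with both treatments, with class medians of -0.90 and -0.79. Jmjd4, a hydroxylase of a translation termination factor, was at 11.04 (ES), 10.93 (ELA), 9.73 (AZA) and 9.35 (CHQ). It fell by 1.20 with AZA and by 1.57 with CHQ, while ELA minus ES was -0.12. Jmjd8, a protein of the endoplasmic reticulum, had 8.81, 9.04, 8.03 and 7.999, and fell with AZA (-1.005) and CHQ (-1.04). Without background subtraction neither Jmjd8 value reached the threshold (-0.94 and -0.96). Jmjd6, a lysyl hydroxylase of splicing factors, had -0.80 and -0.55, and Jmjd5 (Kdm8) had -0.36 and -0.15. Each of these genes has 1 probe.

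The HIF hydroxylases differed in direction. Egln3 (PHD3), a prolyl hydroxylase of HIF that HIF itself induces, was the only member that rose from ES to ELA. It was at 9.90 (ES), 11.10 (ELA), 11.92 (AZA) and 12.42 (CHQ), each array higher than the one before. ELA minus ES was 1.20, and 1.06 at a second probe. Under spike-in scaling it was 0.63 and not called. Egln3 rose from ELA by 1.32 with CHQ (0.99 at the second probe), was not called with AZA (0.82 and 0.52), and was above AZA by 0.50 and 0.47 on the same slide. Egln2 was at 14.34 (ES), 14.62 (ELA), 14.001 (AZA) and 14.06 (CHQ), differences from ELA of -0.62 and -0.56 that its second probe shared (-0.82 and -0.89). Egln1, the main oxygen sensor of the family, had 7.22, 7.99, 7.27 and 7.65, and Hif1an, which hydroxylates an asparagine of HIF, had 10.16, 10.16, 9.44 and 9.72. Neither was called in any comparison. From ES to ELA, Egln1 had 0.76, but was past 1 in size without the offset (1.04), with the 75th percentile (1.05) and in the deposited values (1.14). The number of members called higher stayed at 1 under each of these.

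Other genes of the HIF pathway were read from a fixed list of 10. From ES to ELA 2 rose, Hif3a (1.53) and Arnt2 (1.12), and 0 fell. With AZA 2 rose and 1 fell, and with CHQ 1 rose and 2 fell. The HIF subunits Hif1a and Epas1 were not called with either treatment, whereas their partner Arnt rose by 1.18 and 1.13 and the related Arnt2 fell by 1.70 and 1.10. Of all genes that could be called, 14.2% rose and 11.4% fell with AZA, and 14.8% and 11.9% with CHQ. Of 12 HIF targets outside the members, 8 rose with AZA, as did 7 of the 11 that could be called with CHQ. With either treatment 0 fell, and the medians over the 12 were 1.76 and 1.53. The largest were Car9 (3.83), Ndrg1 (2.97) and Vegfa (2.87) with AZA, and Ndrg1 (4.02), Adm (4.003) and Ddit4 (3.09) with CHQ. From ES to ELA 0 of 11 were called. The part of this response in the values of Egln3, P4ha1, P4ha2, Plod2 and the KDM genes was not tested. Car9, a carbonic anhydrase of the cell surface, was at 7.17 (ES), 6.97 (ELA), 10.81 (AZA) and 7.15 (CHQ), and was thus high on the AZA array alone.

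The collagen hydroxylases held the largest rise of the 41 genes with CHQ. They stabilise collagen in the endoplasmic reticulum, P4ha1 to P4ha3 as catalytic subunits of the prolyl 4-hydroxylase and Plod1 to Plod3 as lysyl hydroxylases. Plod2, which modifies the ends of collagen chains, is read by 1 probe at chr9:92502483-92502542 (mm9), whose first 30 bases are printed because the largest rise with CHQ among the 41 genes rests on it.
Plod2 probe: ctgaaagcctgggattctgacgcctactgg
Plod2 was at 10.21 (ES), 9.93 (ELA), 12.22 (AZA) and 13.09 (CHQ). Both treated arrays were above both untreated ones. Plod2 rose 4.89-fold with AZA (2.29) and 8.90-fold with CHQ (3.15), and its CHQ minus AZA difference of 0.86 exceeded 2 SD of the spread among probes.

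P4ha2 was at 11.34 (ES), 11.02 (ELA), 13.13 (AZA) and 13.26 (CHQ). It rose 4.31-fold (2.11) and 4.73-fold (2.24), and the treated arrays differed by 0.14. P4ha1 was at 7.90, 7.93, 9.59 and 9.60, and rose by 1.66 with each. A second P4ha1 probe, not well above background in ELA, was higher by at least 0.92 with AZA and at least 1.45 with CHQ. Under every normalisation tried, the rises of Plod2, P4ha2 and P4ha1 stayed above 1, with lowest values of 2.23, 1.98 and 1.48 for AZA and 2.88, 1.95 and 1.40 for CHQ.

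The other collagen hydroxylases did not share this rise. Plod1 was at 9.29 (ES), 8.78 (ELA), 7.99 (AZA) and 7.74 (CHQ), and fell with CHQ (-1.04). Its second probe had -0.44, and the call was lost with the mean or median over both probes. The AZA difference was -0.79 and rested on the brightest probe, since the second had -0.07. Plod3 stayed between 11.57 and 11.98. P4ha3 had 8.28, 8.14, 7.70 and 7.59 and was not called. Its second probe had 0.06 with AZA and 0.11 with CHQ, but was not well above background in ELA, so these values give no direction. Partners and clients of these enzymes were read from a list of 11, of which 10 could be called. With AZA 2 rose and 1 fell, and with CHQ 0 rose and 1 fell. P4hb, the subunit that completes the prolyl 4-hydroxylase, was at 14.18 (ES), 14.19 (ELA), 13.79 (AZA) and 13.57 (CHQ), and was not called. Col1a2, a chain of type I collagen, fell by 1.88 with AZA and by 2.00 with CHQ, whereas Col1a1, its partner chain, rose with AZA (1.30). Col1a1 and Col1a2 are also on the list of 4 fibroblast markers. Of the others, Thy1 rose from 12.08 in ES to 13.58 in ELA and fell with CHQ (-2.31), and Postn was not well above background on any array. The part of these markers in the collagen hydroxylase values was not tested.

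Fto and the ALKBH enzymes were called one by one rather than as a group. Fto, which demethylates adenosines of RNA, was at 10.03 (ES), 10.55 (ELA), 9.03 (AZA) and 10.34 (CHQ). The AZA array alone was low. Fto fell by 1.52 with AZA and was 2.48-fold higher with CHQ than with AZA (1.31). This was the only member called between the treated arrays, which share a slide, and it stayed past the threshold under each of the normalisations (1.22 to 1.43). It rests on 1 probe.

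Alkbh2, a repair enzyme of alkylated DNA, was at 13.37 (ES), 12.47 (ELA), 13.56 (AZA) and 12.86 (CHQ). It rose with AZA (1.09) and was not called with CHQ (0.39). CHQ minus AZA was -0.70, beyond 2 SD of the spread among probes. Alkbh3, its relative that also acts on RNA, had 12.85, 12.28, 12.99 and 13.47, and rose with CHQ (1.19) but was not called with AZA (0.71). Alkbh5, the other demethylase of adenosines in RNA, had 12.85, 13.16, 13.81 and 13.74. Its differences from ELA, 0.65 and 0.58, were not called, while one other probe had 0.99 and 1.19 and another had 0.13 and 0.16. Alkbh1 had -0.56 from ES to ELA and -0.05 and -0.20 with the treatments.

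CHQ was then set against AZA, on the same slide. The difference exceeded 1 SD of the spread among probes for 20 genes and 2 SD for 5, where 48.4% and 23.8% of all genes that could be called did so. The 5 were Fto, Plod2, Kdm3a and the brightest probe of Phf8, higher with CHQ, and Alkbh2, higher with AZA. The Kdm3a value was just past 2 SD and was 0.31 under spike-in scaling. The other 3 Phf8 probes had 0.06, -0.22 and 0.08. The JmjC demethylases had a median of 0.33, with 14 of 17 above 0, where 47.7% of all genes that could be called were above 0. Under spike-in scaling that class had a median of 0.086, with 11 of 17 above 0, where 33.9% of all genes that could be called were. The median over all 41 genes was nearer to 0 under that scaling (0.022). The median of all genes that could be called moved from -0.02 to -0.18.

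**Figure D3:**
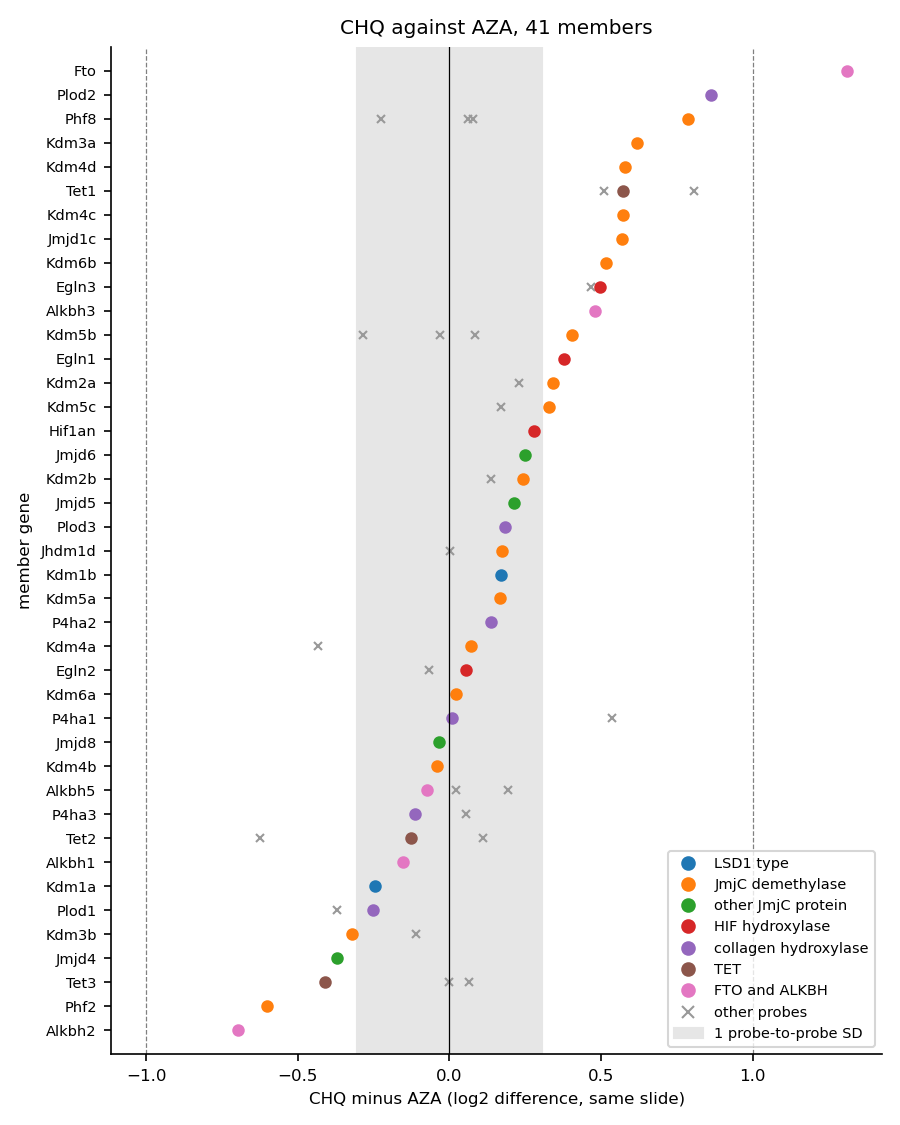
CHQ minus AZA (x axis, log2 difference between arrays of the same slide) for the 41 genes (y axis), coloured by class, with other probes of a gene as crosses. The grey band is 1 SD of a difference among probes of a gene (0.304) and dashed lines stand at -1 and 1; Fto alone lies beyond 1.

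Genes around the members were read from further lists. Of 23 2-oxoglutarate oxygenases outside the 41, 19 could be called from ES to ELA and with AZA, and 20 with CHQ. From ES to ELA 0 were called, 2 rose and 1 fell with AZA, and 2 rose and 2 fell with CHQ. Of all genes that could be called, 14.2% rose and 11.4% fell with AZA, and 14.8% and 11.9% with CHQ. Hr, a JmjC corepressor, rose by 1.98 and 1.66 with AZA and CHQ. Tmlhe, the first enzyme of carnitine synthesis, fell by 1.83 and 1.92. P3h2 (Leprel1), a collagen prolyl 3-hydroxylase, was not well above background in ELA and was higher by at least 1.63 with CHQ. Of 17 genes that supply 2-oxoglutarate or handle metabolites that inhibit these enzymes, 0 were called with AZA and 1 rose with CHQ (Glud1, 1.23). Idh1 was higher with CHQ than with AZA (1.05) and Idh2 lower (-1.19). Of 11 genes of iron and ascorbate handling, 1 fell with AZA (Aco1, -1.06) and 1 rose with CHQ (Tfrc, 1.01), the receptor that takes up iron. The iron exporter Slc40a1 and the ascorbate transporter Slc23a1 were higher with CHQ than with AZA, by 1.19 and 1.24.

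Markers of cell states moved with the arrays as well. Of 3 primed markers, Fgf5 and Dnmt3b rose from ES to ELA (2.86 and 1.05) and fell with AZA (-2.54 and -1.67), and Fgf5 fell with CHQ (-1.15). The third, Otx2, was not called, with 0.60 from ES to ELA, 0.34 with AZA and -0.29 with CHQ. Of 8 primitive endoderm markers, 0 of the 4 that could be called were called with AZA, and 2 of 6 rose with CHQ. Gata6 and Sox17, not well above background in ES and ELA, were higher than ELA by at least 3.14 and 2.74 with CHQ, and by at least 1.31 and 0.99 with AZA, where their mean level was under the minimum for a call. Among 4 trophoblast markers, the keratins Krt8 and Krt18 fell with both treatments. Cdx2 and Elf5, which define that lineage, were well above background on 1 array each. The part of these markers in the values of the 41 genes was not tested.

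**Figure D4:**
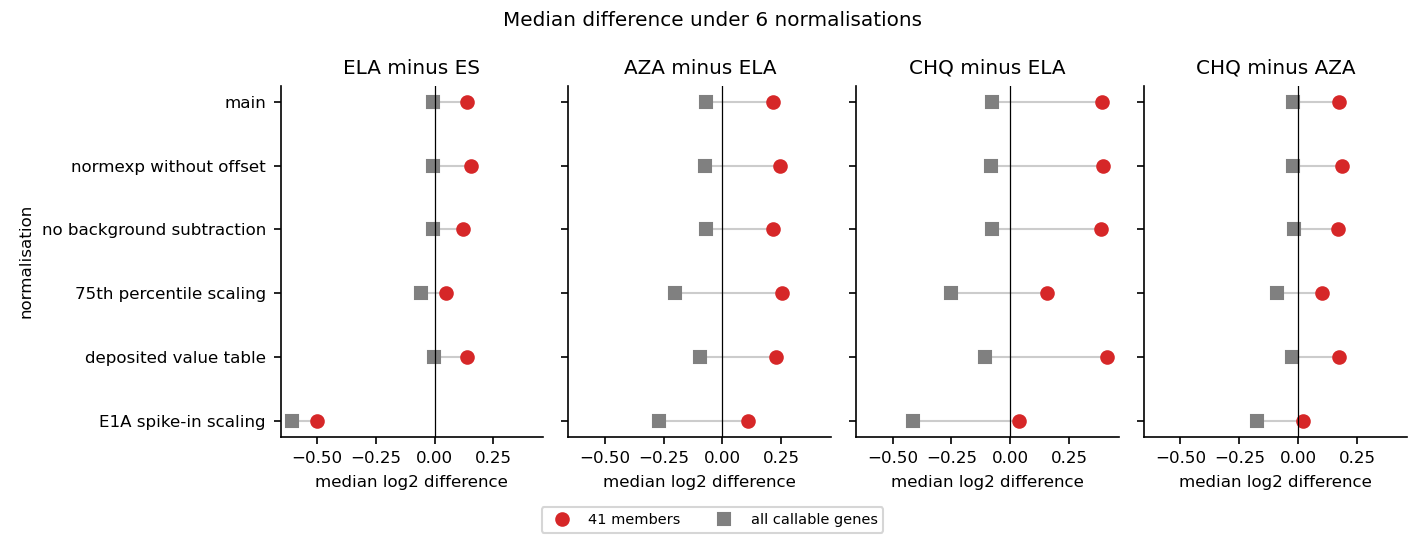
Median log2 difference (x axis) of the 41 genes (red circles) and of all genes that could be called in the main setting (grey squares) under 6 normalisations (y axis), in the 4 comparisons. The red circle lies to the right of the grey square in each row; the E1A spike-in scaling moves both most, to -0.50 and -0.60 for ELA minus ES.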

How the data were processed

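RNA was measured on 4 single-colour Agilent mouse arrays (ES, ELA, ELA with AZA, ELA with CHQ). Per the file headers, the authors read the images with Feature Extraction 10.7.3.1, whereas the labels name 9.1. The deposited scanner files hold the mean spot intensity, the local background intensity and a processed intensity, not normalised between arrays. A deposited table gives the log2 level of each probe, which the authors had corrected and quantile-normalised with limma. It correlated at 0.9991 to 0.9993 per array with a normexp correction without offset.

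The spot intensity was corrected by normexp (limma 3.58.1, R 4.3.3) with an offset of 50, and gene spots were quantile-normalised over 4 arrays. Spots with an outlier flag were dropped (188 to 523 per array), 0 spots were saturated, and spots of a probe were averaged. Of 55681 probes, 559 had no usable spot on some array and were left out. Accessions of 26582 probes matched RefSeq symbols (GRCm38.p6), and other probes kept the name given by the design. Of several probes of a gene, the brightest on average over the 4 arrays was taken, and genes with a disagreeing probe were counted. A probe not well above background on the dimmer array gives a bound ("at least"), taken against the lowest signal well above background there or its own, if higher. Thresholds of size (1) and level (7.5) are those of the study's methods. The offset raises dim values, so the level admits dimmer genes here than it would on the deposited values. Array medians were 6.20 to 6.24 in the deposited values and 7.17 to 7.38 with the offset, before quantile normalisation. The study's p-value was not applied, as there are no replicates. All members are named, and of each other list at most 3 called genes per comparison. Genes of those lists that were not called were named after their values were seen. The members and lists were chosen with earlier results of these data known. The number of arrays limits the precision. The knock-down of SmarcA4 was not analysed here. One result of a further gene list and 1 probe sequence are not reported here.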

Additional observations from a re-analysis of the deposited data

How the results depend on the processing

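Of 11 other settings, 7 rescaled the values or summarised probes differently, and under each of them every called member kept its direction apart from Phf8. Its CHQ minus ELA difference of 1.03 turned to -0.037 for the mean over probes and -0.60 for the median over probes, which takes each array's median level and so rests on different probes in ELA and CHQ. The median of the differences of the probes, added after the data were seen, gave -0.078. E1A spike-in scaling moved most values. From ES to ELA it gave 0 members higher and 9 lower, with a median of -0.50, it gave 5 higher with AZA, and it gave 7 higher with CHQ, with a median of 0.036. The median of all genes that could be called moved to -0.60, -0.27 and -0.41 under it, so changes are relative to the bulk of transcripts. The 75th percentile gave 4 members lower from ES to ELA and a CHQ minus ELA median of 0.15. Without background subtraction, and with a mean level of at least 9, 1 member was lower with CHQ. A threshold of 1.5-fold gave 6 higher and 4 lower from ES to ELA, 8 lower with AZA, and 4 higher and 2 lower between CHQ and AZA. The cause of these shifts was not tested, apart from the smaller size, which admits more genes. The slide as a block was not run, since each treated group lies on a slide without its control. No paired analysis was possible because each group has 1 array. Probes near background limit Kdm4d, Egln1 and dimmer probes of Tet2, Tet3, P4ha1, P4ha3, Kdm3b, Kdm4a and Phf8.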
